A study of Mus musculus with 8 samples.

Results

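The mouse mitochondrial genome is a small circular DNA that is separate from the nuclear chromosomes. Of 46517 genes with deposited counts, 37 lay on it, and these were taken by their chromosome (MT) alone, with no use of their counts. They comprised 13 protein-coding genes, 2 rRNA genes and 22 tRNA genes, and all 37 had the same coordinates and strand in the GENCODE M21 annotation of GRCm38 (mm10). Their RNA was measured by bulk RNA-Seq of whole liver from 8 male C57BL/6 mice with floxed FoxO1 alleles, namely 4 MøFoxO1-KO mice (KO26 to KO29) and 4 WT littermates (WT22 to WT25). The MøFoxO1-KO mice also carried Lyz2-Cre, which is driven by the lysozyme 2 promoter and deletes the floxed gene in myeloid cells, while hepatocytes and the other cells of the liver keep it. All 8 mice were 31 weeks old, had started a NASH-inducing diet at the age of 6 weeks, had eaten it for 25 weeks and were fasted for 16 h, so that no mouse on a regular diet is among them. The comparison asked how loss of myeloid FoxO1 bears on the hepatic transcriptome in dietary NASH, and it is given here for the RNAs made in mitochondria.

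Each mitochondrial mRNA encodes a subunit of the oxidative phosphorylation system, in which complexes I, III and IV pass electrons to oxygen and complex V makes ATP. Complex II and all the remaining subunits are encoded in the nucleus and imported, and the liver, rich in mitochondria, spends much of that ATP on gluconeogenesis, urea synthesis and lipid handling. Both strands of the mitochondrial DNA are transcribed as long precursors. One precursor, called the heavy-strand transcript here, carries the rRNAs and nearly all mRNAs, and the light-strand transcript carries mt-Nd6 and a minority of tRNAs. The tRNAs lie between most of the other genes, and their excision releases the rRNAs and most of the mRNAs. Most of these RNAs then receive short poly(A) tails. The libraries were made from RNA bound to poly-T beads, with fragments of 150 to 200 bp selected and a kit that does not mark the strand.

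One feature of the sequence governs what the counts of the mRNAs can show. A stretch of nuclear chromosome 1, on the minus strand at chr1:24611535-24616188, holds annotated pseudogenes that match genes within MT:6390-11042 almost base for base. Over 4140 aligned bases of 7 pseudogenes, 2 bases differed from the mitochondrial genes. A short read from nearly any point of these aligned bases therefore fits both places, and how reads with 2 or more matches were counted is not given in the sources used here. The bases between the aligned genes were not compared, and the span was 4653 bases on MT and 4654 on chromosome 1. The stretch begins inside mt-Co1, the gene of the catalytic subunit of complex IV, and ends inside mt-Nd4, a complex I gene. The 60 bases of each gene around these borders are shown from GENCODE M21 transcripts, 5′ to 3′ on the heavy-strand transcript. They lie at MT:6360-6419 for mt-Co1 and at MT:11013-11072 for mt-Nd4. Capitals mark the bases aligned to a chromosome 1 pseudogene, and A1066 of mt-Co1 is among them although it differs there.
mt-Co1: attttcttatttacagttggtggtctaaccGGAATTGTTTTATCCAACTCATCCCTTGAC
mt-Nd4: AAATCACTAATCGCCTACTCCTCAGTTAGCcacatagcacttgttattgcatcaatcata

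Both mismatches are shown next, with the base that differs in capitals, because they are the only letters in the aligned bases by which such a read can be placed. The first was A1066T, counted from 1 at the 5′ end of mt-Co1, with the mitochondrial base first and the base of the pseudogene Gm29216 last.
mt-Co1: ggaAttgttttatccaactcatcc
Gm29216: ggaTttgttttatccaactcatcc
The other was T3C, counted from the 5′ end of mt-Nd3, a complex I gene, against the pseudogene Gm28438.
mt-Nd3: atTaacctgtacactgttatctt
Gm28438: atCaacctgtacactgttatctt
The start of mt-Atp6, a subunit of the proton channel of complex V, is shown with its pseudogene Gm10925 as an example of a stretch with no difference. Its first 43 bases, in capitals, overlap the end of mt-Atp8, and the lines cover MT:7927-7986 and the matching start of Gm10925 on chromosome 1.
mt-Atp6: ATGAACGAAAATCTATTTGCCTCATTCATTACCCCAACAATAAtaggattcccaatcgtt
Gm10925: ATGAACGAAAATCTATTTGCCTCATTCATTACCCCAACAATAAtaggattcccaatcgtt

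The counts split along these borders. In CPM (counts per 1000000 of the TMM-scaled library) per kilobase of gene length, the mean level over the 8 mice was 10891 for mt-Co1, 8583 for mt-Cytb, the complex III subunit that carries electrons across the membrane, and 8278 for mt-Nd1. On the same scale mt-Nd2 stood at 6437, mt-Nd4 at 3704, mt-Nd6 at 2468 and mt-Nd5 at 1677, all of them complex I subunits. The next gene down was mt-Nd3 at 55.8, followed by mt-Atp6 at 24.5, mt-Co2 at 23.3, mt-Co3 at 19.1, mt-Nd4l at 9.40 and mt-Atp8 at 2.08. Of these 6 low genes, mt-Nd3, mt-Atp6, mt-Co2, mt-Co3 and mt-Nd4l matched chromosome 1 over more than 90% of their length, and mt-Atp8 lies between mt-Co2 and mt-Atp6 within the matching span but has no annotated pseudogene of its own. None of the 7 high genes was matched over its whole length at 99% identity, and only mt-Co1, over 483 of 1545 bases, and mt-Nd4, over 876 of 1378 bases, were matched in part. The levels of the matched low genes can therefore not be read as the amounts of their mRNAs. Nor can that of mt-Atp8, because chromosome 1 was compared only at annotated pseudogenes. The cause of the low levels was not tested. The low genes include mt-Co2 and mt-Co3, which encode core subunits of complex IV as mt-Co1 does.

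The order of the levels held from mouse to mouse at most steps. Each gene was above the next in all 8 mice, except that mt-Co1 was above mt-Cytb in 7 of 8, mt-Cytb above mt-Nd1 in 5 of 8 and mt-Atp6 above mt-Co2 in 6 of 8. The level of mt-Cytb and mt-Nd1 thus did not differ beyond the spread over mice. If the copied bases are left out of the length, as they would be if no shared read were counted, the WT mean of mt-Co1 became 16603 ± 2029 CPM per kilobase and that of mt-Nd4 9505 ± 1334 (SD, n = 4). With the whole length these WT means were 11412 ± 1394 and 3463 ± 486, so the place of mt-Nd4 in the order depends on this choice.

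**Figure D1:**
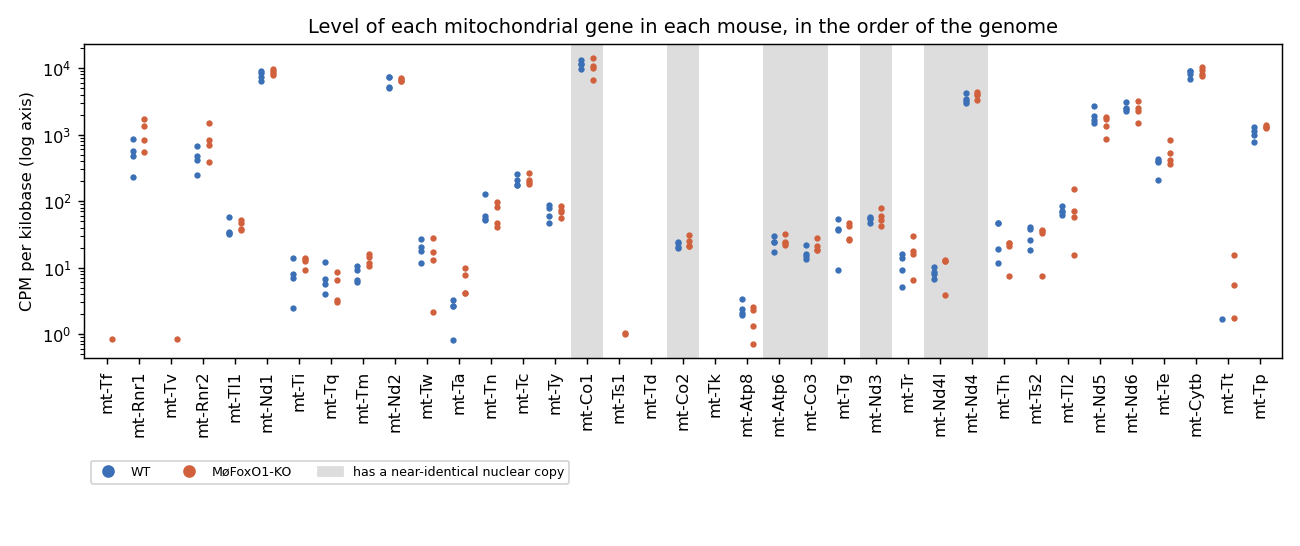
Level of each of the 37 mitochondrial genes in each mouse, in CPM per kilobase on a log axis, with the genes in their order along the genome, WT in blue and MøFoxO1-KO in orange. Each point is 1 mouse, mice with 0 counts are not drawn, and grey marks the 7 genes with a near-identical nuclear pseudogene, of which mt-Co1 and mt-Nd4 are matched only in part and are the only high ones.

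The pseudogenes themselves received counts. Gm28661, the match of mt-Co2, had 304 to 442 counts per mouse with a mean of 363, against a mean of 261 for mt-Co2. Gm10925 had 212 to 392 with a mean of 307, against 274 for mt-Atp6, and Gm29216 had 152 to 295. For these pairs the reads of a gene and of its pseudogene cannot be told apart over the shared bases, except for reads over the mismatch A1066T between mt-Co1 and Gm29216. No pseudogene of the 7 passed the test between the genotypes, and the log2 fold changes lay between -0.36 for Gm10222 and 0.27 for Gm28437 and Gm29216 (lowest adjusted P = 0.508, edgeR quasi-likelihood test with Benjamini-Hochberg adjustment). A further 10 annotated pseudogenes matched at 90 to 99% identity, among them Gm13340 for mt-Co1 with 18 to 53 counts.

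Of the whole libraries the following is needed. Total counts ranged from 15253218 to 18025481 per mouse. Foxo1 itself had 328 to 467 counts in WT and 253 to 448 in MøFoxO1-KO mice (log2 fold change -0.17 ± 0.18, SE, adjusted P = 0.686, edgeR with Benjamini-Hochberg adjustment), so that whole liver does not show the deletion, which is restricted to myeloid cells. All 10 hepatocyte markers examined were detected, and their summed level was 72763 to 99811 CPM in WT and 88535 to 127290 in MøFoxO1-KO mice. The 10 macrophage markers summed to 181 to 311 CPM in WT and to 199 to 890 in MøFoxO1-KO mice. In bulk liver, fewer cells of a type and less RNA per cell cannot be told apart, and this holds for every value below.

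The part of the library taken by mitochondrial genes did not differ between the genotypes beyond the spread over mice. The share of all counts on chromosome MT was 5.19% in WT22, 5.33% in WT23, 5.62% in WT24 and 5.75% in WT25. It was 5.14% in KO26, 4.16% in KO27, 6.33% in KO28 and 4.72% in KO29. The WT mice thus lay inside the range of the MøFoxO1-KO mice, which held both the lowest and the highest share. The mean was 5.47% ± 0.258 in WT and 5.09% ± 0.921 in MøFoxO1-KO mice (SD, n = 4 each), a difference of -0.386 percentage points that turned to 0.146 when each library was scaled by the TMM (trimmed mean of M values) factor used in the gene test. That factor ranged from 0.902 in KO27 to 1.15 in WT24. Neither direction exceeded the spread between mice.

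The classes of RNA were divided very unequally. The protein-coding genes held 5.33% ± 0.221 of all counts in WT and 4.85% ± 0.988 in MøFoxO1-KO mice (SD, n = 4 each), with KO27 lowest at 3.79% and KO28 highest at 6.12%. The 2 rRNAs, the most abundant mitochondrial RNAs in a cell but carriers of only short tails, held 0.127%, 0.0605%, 0.137% and 0.194% in WT22 to WT25. In KO26 to KO29 they held 0.107%, 0.359%, 0.190% and 0.244%. The 22 tRNAs together held 0.0118% to 0.0178% across all mice, so that the depth behind a single tRNA was low. Within the mitochondrial counts, mt-Co1 alone took 22.1% in KO27 and up to 37.7% in WT23, mt-Cytb 16.2% to 19.97%, mt-Nd1 11.3% to 17.4% and mt-Nd2 9.55% to 15.4%.

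**Figure D2:**
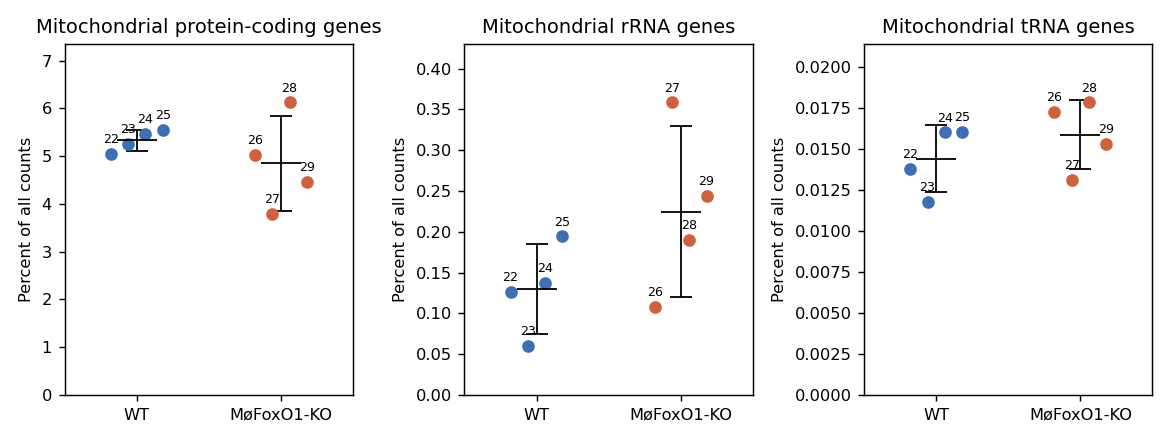
Percent of all counts on mitochondrial protein-coding, rRNA and tRNA genes in each mouse, with a separate axis from 0 for each class. Points are mice with their numbers, the long tick is the mean and the bars are ± 1 SD (n = 4 each). The genotypes overlap in all 3 panels, KO27 is lowest and KO28 highest for the protein-coding genes, and KO27 is highest for the rRNAs.

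In the test of MøFoxO1-KO against WT mice, 28 of the 37 genes passed the filter on low counts, namely 12 mRNAs, both rRNAs and 14 tRNAs. None of the 28 was called at an adjusted P under 0.05 with an absolute log2 fold change over 1.5, nor at an adjusted P under 0.05 alone (edgeR quasi-likelihood test, Benjamini-Hochberg adjustment over 13278 genes), where the background was 0.188% and 0.294% of all genes tested. DESeq2 and limma-voom gave 0 at an adjusted P under 0.05 as well, and DESeq2 gave 4.42% of its genes. At an unadjusted P under 0.05, 2 genes were higher in MøFoxO1-KO mice against a background of 8.65%, and 0 were lower against 8.06%. With DESeq2 there were 4 and with limma-voom 2 such genes, and with edgeR the count of 2 became 0 without WT22, WT23 or WT24, 1 without KO29 and 4 without WT25. Of the 28, 21 had a log2 fold change above 0, against 48.3% of all genes tested, and the median was 0.11 against -0.01 over all genes. Since these genes lie on shared precursor transcripts and were measured in the same 8 mice, they are not independent.

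No mRNA passed the test. Of the 12 tested, 9 were higher and 3 lower in MøFoxO1-KO mice, 0 passed at an unadjusted P under 0.05 with edgeR, and the median log2 fold change was 0.11 with a range from -0.43 for mt-Nd5 to 0.38 for mt-Co3. Over the 5 tested mRNAs without a near-identical pseudogene the median was also 0.11. In each of the 12 the values of the genotypes overlapped, while 9.71% of all genes tested had no overlap.

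Complex I has 7 mitochondrial subunits, which form the membrane arm that pumps protons. For mt-Nd1, which sits where the membrane arm meets the matrix arm, normalized counts were 114476, 99857, 132706 and 140522 in WT22 to WT25 and 123210, 131987, 153587 and 141306 in KO26 to KO29. KO28 and KO29 lay above all WT mice, and WT23 and WT22 below all MøFoxO1-KO mice, with WT24 and WT25 in between the others. This gave a log2 fold change of 0.17 (95% interval -0.18 to 0.53, adjusted P = 0.627, edgeR with Benjamini-Hochberg adjustment). The corresponding log2 fold changes were 0.11 for mt-Nd2, 0.19 for mt-Nd4, 0.11 for mt-Nd3 and 0.32 for mt-Nd4l, the latter pair with 244 to 448 and 19 to 63 normalized counts per mouse.

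Among the mRNAs the most negative log2 fold change was that of mt-Nd5, which encodes a proton-pumping subunit at the tip of the membrane arm. Its normalized counts were 49317, 79839, 56120 and 44489 in WT22 to WT25 and 54656, 25634, 50470 and 40151 in KO26 to KO29. WT23 stood above all other mice and KO27 below them, and the remaining 6 were mixed. The log2 fold change was -0.43 ± 0.26 (SE, 95% interval -1.01 to 0.15, adjusted P = 0.444, edgeR with Benjamini-Hochberg adjustment), and it was between -0.57 and -0.23 when any 1 mouse was left out.

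mt-Nd6 is the only mRNA of the light-strand transcript, and its 3′ end overlaps the 3′ end of mt-Nd5 by 14 bases on the opposite strand. Its normalized counts were 20741, 26159, 21439 and 19022 in WT and 27163, 12702, 21565 and 19011 in MøFoxO1-KO mice, with KO26 highest and KO27 lowest of all. The log2 fold change was -0.12 ± 0.22 (SE, adjusted P = 0.825, edgeR with Benjamini-Hochberg adjustment). A ratio within a mouse does not depend on scaling between libraries, and the counts of mt-Nd6 over those of mt-Nd5 were 0.421, 0.328, 0.382 and 0.428 in WT and 0.497, 0.496, 0.427 and 0.473 in MøFoxO1-KO mice. KO28, at 0.427, lay below WT25, at 0.428, and KO26, KO27 and KO29 exceeded every WT mouse. The mean log2 ratio was higher by 0.29 in MøFoxO1-KO mice (exact two-sided permutation test, P = 0.0571, n = 4 each, where 0.0286 is the smallest possible), which missed the threshold. Set against the other 12 mRNAs together, mt-Nd6 was lower by 0.16 on the log2 scale in MøFoxO1-KO mice (exact two-sided permutation test, P = 0.457, n = 4 each), so the direction depends on the partner. Reads from the 2 strands cannot be told apart in these libraries, so these are ratios of the counts over each gene and not of the 2 transcripts. Whether poly(A) selection captured mt-Nd6 as well as the other mRNAs was not tested.

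Complex III has 1 mitochondrial subunit, mt-Cytb. Its normalized counts were 151564, 168223, 129308 and 170053 in WT and 176684, 151094, 196227 and 142999 in MøFoxO1-KO mice, with complete mixing of the genotypes. This amounts to a log2 fold change of 0.11 (95% interval -0.26 to 0.48, adjusted P = 0.787, edgeR with Benjamini-Hochberg adjustment).

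Of the complex IV subunits only mt-Co1 was counted at depth. It had 289934, 331653, 245276 and 287923 normalized counts in WT and 273858, 167279, 354891 and 253151 in MøFoxO1-KO mice. KO27 lay below all other mice and KO28 above them. Its log2 fold change was -0.14 (95% interval -0.64 to 0.37, adjusted P = 0.799, edgeR with Benjamini-Hochberg adjustment), and without KO27 it was 0.03. mt-Co2 and mt-Co3, with 221 to 348 and 172 to 358 normalized counts per mouse, had log2 fold changes of 0.15 and 0.38, the latter the largest of the mRNAs (adjusted P = 0.368, edgeR with Benjamini-Hochberg adjustment).

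Complex V has 2 mitochondrial subunits. mt-Atp6 had 191 to 330 normalized counts in WT and 241 to 352 in MøFoxO1-KO mice. Its log2 fold change, 0.08 ± 0.18 (SE, adjusted P = 0.856, edgeR with Benjamini-Hochberg adjustment), was below 0 without WT22 or without KO28. mt-Atp8, a small accessory subunit, had 12, 8, 7 and 7 counts in WT and 8, 2, 9 and 4 in MøFoxO1-KO mice. It was the only mRNA below the filter, and a difference was not detectable at this depth.

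**Figure D3:**
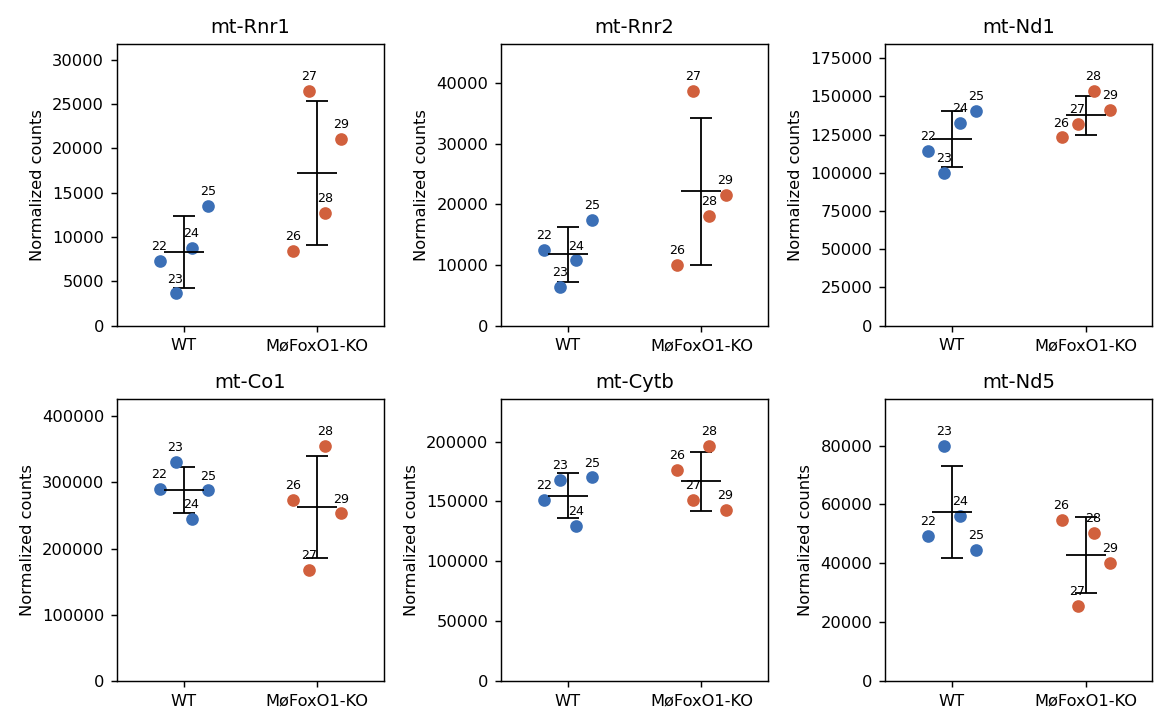
Normalized counts (counts scaled by TMM library size) of mt-Rnr1, mt-Rnr2, mt-Nd1, mt-Co1, mt-Cytb and mt-Nd5 in each mouse, each panel with its own axis from 0. Points are mice with their numbers, the long tick is the mean and the bars are ± 1 SD (n = 4 each). KO27 is the highest mouse for both rRNAs and the lowest for mt-Co1 and mt-Nd5, and WT23 is the lowest for both rRNAs and the highest for mt-Nd5.

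The 2 rRNAs had the largest log2 fold changes of the 28 tested genes. mt-Rnr1, the RNA of the small mitochondrial ribosomal subunit (MT:70-1024), had 7326, 3637, 8754 and 13515 normalized counts in WT22 to WT25. In KO26 to KO29 it had 8462, 26497, 12741 and 21091. KO27 and KO29 lay above every WT mouse, KO28 and KO26 lay among the WT mice, and WT23 was lowest. The log2 fold change was 1.05 ± 0.42 (SE, 95% interval 0.11 to 1.99), with an unadjusted P of 0.0314 and an adjusted P of 0.252 by edgeR with Benjamini-Hochberg adjustment, and it did not pass the threshold (exact two-sided permutation test of the normalized counts, P = 0.143, n = 4 each).

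mt-Rnr2, the RNA of the large subunit (MT:1094-2675), showed a similar order of mice. Normalized counts were 12418, 6362, 10757 and 17429 in WT and 10054, 38680, 18134 and 21602 in MøFoxO1-KO mice, with KO27 highest, WT23 lowest and KO26 among the WT mice. The log2 fold change was 0.91 ± 0.40 (SE), with an adjusted P of 0.285 by edgeR with Benjamini-Hochberg adjustment. Without KO27 it was 0.51, with an adjusted P of 0.635, while that of mt-Rnr1 was 0.77. mt-Rnr2 over mt-Rnr1 ranged only from 1.02 to 1.75 over the 8 mice, whereas rRNA over mRNA counts ranged from 0.0115 in WT23 to 0.0946 in KO27. The rRNA to mRNA ratio was 0.0250, 0.0115, 0.0251 and 0.0351 in WT and 0.0214, 0.0946, 0.0309 and 0.0547 in MøFoxO1-KO mice, so the genotypes overlapped through KO26 and KO28.

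KO27 and KO29, with the highest rRNA levels, also had the highest macrophage marker sums (605 and 890 CPM, against 317 in KO26 and 199 in KO28) and the highest hepatocyte marker sums (127290 and 113725 CPM, against 109637 in KO26, 88535 in KO28 and 99811 in the highest WT mouse). They had the lowest TMM factors of the 8 libraries, at 0.902 and 0.936, with 0.951 in KO26, so that KO26 was close to KO29 in hepatocyte sum and TMM factor. Of the macrophage markers 9 of 10 were higher in MøFoxO1-KO mice, and of the hepatocyte markers 9 of 10, with no marker at 0 in all mice. The share of all tested genes was 48.3%. The macrophage log2 fold changes ranged from -0.77 to 5.18. Of the other tested markers, 7 of 7 endothelial, 6 of 6 T, NK and B cell and 5 of 8 stellate ones were higher. So were 2 of 5 for monocytes and neutrophils, 1 of 5 erythroid and 0 of 5 cholangiocyte ones. Nuclear-retained RNA (Malat1, Neat1, Kcnq1ot1 and Meg3) summed to 327 CPM in KO27 and 357 in KO29, inside the WT range of 256 to 475. Because mitochondrial rRNA enters such a library mainly through its short tail or an internal run of A bases, its counts measure captured rRNA rather than all rRNA. The part of any of these measures in the rRNA values was not tested.

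Single mice were prominent across the set. Among the 12 mRNAs KO28 was the highest mouse for 8 and KO27 the lowest for 5, and among all 28 tested genes KO28 was highest for 11 and KO27 lowest for 9. KO27 was nonetheless the highest mouse for both rRNAs and near the middle for mt-Nd1, mt-Nd2 and mt-Nd4. The ratios between single mRNAs of the heavy-strand transcript varied with the mouse. mt-Nd1 over mt-Nd5 counts were 2.32, 1.25, 2.36 and 3.16 in WT and 2.25, 5.15, 3.04 and 3.52 in MøFoxO1-KO mice, lowest in WT23 and highest in KO27. mt-Nd1 over mt-Co1 was likewise lowest in WT23, at 0.301, and highest in KO27, at 0.789. mt-Cytb over mt-Nd5 followed the same extremes, with 2.11 in WT23 and 5.89 in KO27. For all 3 ratios the genotypes overlapped.

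**Figure D4:**
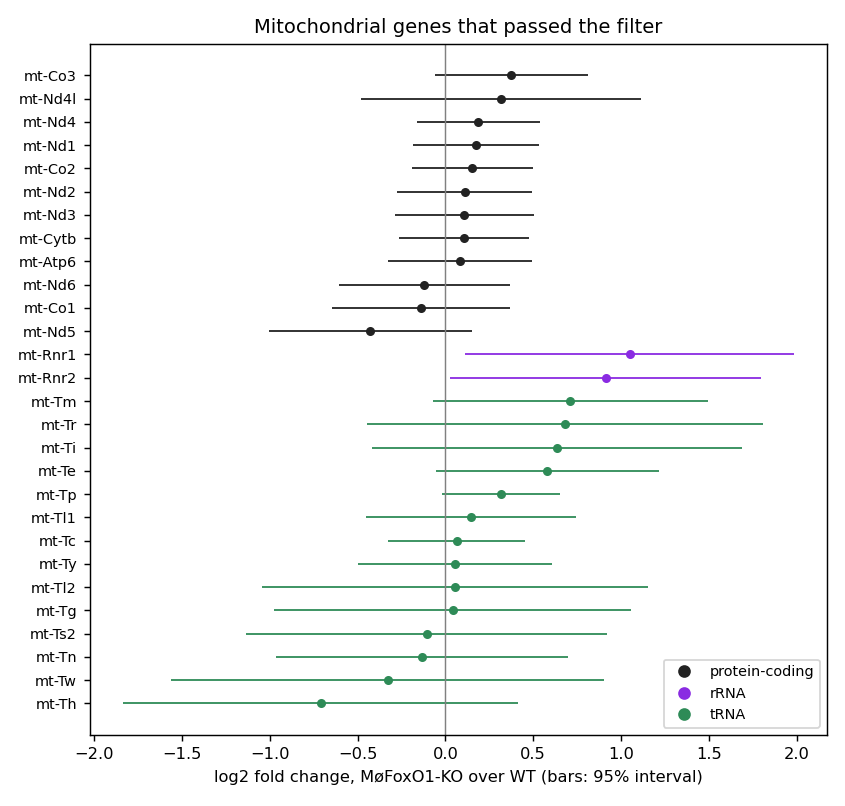
Log2 fold change of MøFoxO1-KO over WT mice for the 28 mitochondrial genes that passed the filter, from edgeR, with 95% intervals as bars, in black for mRNAs, purple for rRNAs and green for tRNAs. The intervals of mt-Rnr1 and mt-Rnr2 lie above 0 before adjustment and all the others include 0.

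The tRNAs are 59 to 75 bases long, shorter than the selected fragments, so that a fragment counted for a tRNA reaches into its neighbours or belongs to a precursor. Counts were uneven between them. mt-Tp held 52.0% of all tRNA counts, mt-Te 20.3%, mt-Tc 9.07%, mt-Tl2 3.397%, mt-Tn 3.27% and mt-Ty 3.08%. All but mt-Tl2 are encoded on the light-strand transcript, and the 8 tRNAs of that transcript held 82.9% to 93.2% of the tRNA counts of each mouse, against 14 tRNAs on the heavy-strand transcript. As the libraries carry no strand, reads over a light-strand tRNA can also come from the heavy-strand precursor through the same bases, and this was not tested. Their sequences as DNA, from the GENCODE M21 transcripts and 5′ to 3′ on their own strand, are shown with the anticodon in capitals because the counts rest on these few.
mt-Tp: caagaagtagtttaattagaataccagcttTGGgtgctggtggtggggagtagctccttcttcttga
mt-Te: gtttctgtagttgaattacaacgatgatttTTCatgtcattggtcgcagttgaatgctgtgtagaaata
mt-Tc: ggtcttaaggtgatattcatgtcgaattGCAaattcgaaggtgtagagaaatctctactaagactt
mt-Tl2: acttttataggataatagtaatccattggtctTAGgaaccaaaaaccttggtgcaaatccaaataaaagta
mt-Tn: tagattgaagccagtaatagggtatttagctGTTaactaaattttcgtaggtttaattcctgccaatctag

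mt-Tp, the proline tRNA (MT:15356-15422, light-strand transcript), is the last gene before the non-coding control region. Its normalized counts were 1254, 853, 1092 and 1417 in WT and 1402, 1448, 1511 and 1391 in MøFoxO1-KO mice. The MøFoxO1-KO mice lay close together and only WT25 reached into their range. For mt-Tp the log2 fold change was 0.32 ± 0.15 (SE, 95% interval -0.02 to 0.65, adjusted P = 0.329, edgeR with Benjamini-Hochberg adjustment).

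mt-Te, the glutamate tRNA (MT:14071-14139, light-strand transcript), directly adjoins mt-Nd6. It had 236, 448, 486 and 435 normalized counts in WT and 927, 409, 599 and 462 in MøFoxO1-KO mice, with KO26 far above the others and WT22 lowest. Its estimate was a log2 fold change of 0.58 ± 0.28 (SE, adjusted P = 0.344, edgeR with Benjamini-Hochberg adjustment), and leaving out single mice moved it between 0.29 and 0.73. For mt-Tc, the cysteine tRNA, and mt-Tn, the asparagine tRNA, the log2 fold changes were 0.06 and -0.14. For mt-Tl2, the leucine tRNA of the CUN codons, counts ranged from 15 in KO27 to 156 in KO29 and the log2 fold change was 0.05.

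The methionine tRNA mt-Tm (MT:3845-3913, heavy-strand transcript), which lies just before mt-Nd2, was the 1 gene of the 28 tested whose genotypes did not overlap, against 9.71% of all genes, made up of 5.00% with every MøFoxO1-KO mouse above every WT mouse and 4.71% with every one below. It had 11, 12, 8 and 7 counts in WT and 19, 10, 17 and 12 in MøFoxO1-KO mice, so that the raw counts overlapped and the separation appeared only after scaling, with 11.8 normalized counts in WT23 against 11.9 in KO27. In the fit its log2 fold change was 0.71 ± 0.35 (SE, adjusted P = 0.346, edgeR with Benjamini-Hochberg adjustment). The remaining tested tRNAs, mt-Tl1, mt-Ti, mt-Tw, mt-Ty, mt-Tg, mt-Tr, mt-Th and mt-Ts2, had log2 fold changes from -0.71 for mt-Th to 0.68 for mt-Tr and none passed. Over all 14 tested tRNAs 10 were higher and 4 lower, with a median of 0.06.

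Of the 8 tRNAs below the filter, mt-Tq had 3 to 14 counts per mouse and mt-Tt 0 to 15. mt-Ta, the alanine tRNA (MT:5018-5086, light-strand transcript), had 3.74, 2.94, 0.921 and 2.98 normalized counts in WT and 8.61, 4.77, 4.74 and 11.2 in MøFoxO1-KO mice. The genotypes did not overlap, from 1 to 10 counts per mouse (exact two-sided permutation test, P = 0.0286, n = 4 each, unadjusted and the smallest possible). WT22 and KO27 both had 4 raw counts of mt-Ta, so this separation appeared only after scaling. Of 32 mitochondrial genes given this exact permutation test, mt-Ta and mt-Tm were the 2 below 0.05, which requires genotypes without overlap. Among all genes tested with edgeR, 9.71% had no overlap. In a fit with no filter on low counts mt-Ta had an adjusted P of 0.458 and mt-Tt one of 0.301 (edgeR with Benjamini-Hochberg adjustment). mt-Ts1, mt-Tf and mt-Tv had at most 1 count in any mouse. mt-Td and mt-Tk, which flank mt-Co2, had 0 counts in all 8 mice, and for these 5 genes a difference was not detectable at this depth. mt-Td and mt-Tk lie inside the span matched by chromosome 1 but between the aligned genes, and so do mt-Tg and mt-Tr, which had 11 to 62 and 6 to 35 counts and passed the filter.

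The nuclear genes that work with the mitochondrial ones give the setting for these values. Of 77 nuclear subunit genes of complexes I to V, all tested, 72 were higher in MøFoxO1-KO mice and 5 lower. Their median log2 fold change was 0.39, against 0.11 for the 12 mitochondrial mRNAs and -0.01 for all genes. None reached an adjusted P under 0.05 with edgeR (lowest 0.0738, Benjamini-Hochberg adjustment) or limma-voom, while 20 of the 77 did with DESeq2, against 4.42% of all its genes. With edgeR 51 reached an unadjusted P under 0.05 upward and 0 downward against a background of 8.65% and 8.06%, and 28 had every MøFoxO1-KO mouse above every WT mouse against 5.00%. By complex, 34 of 36 were higher for complex I, 3 of 4 for complex II, 8 of 9 for complex III, 11 of 11 for complex IV and 16 of 17 for complex V. The lowest P was that of Ndufb2, a small accessory subunit of complex I, with 265 ± 49.8 normalized counts in WT and 482 ± 77.1 in MøFoxO1-KO mice (SD, n = 4 each) and a log2 fold change of 0.87. Cox7a2 of complex IV and Atp5o of complex V had log2 fold changes of 0.62 and 0.52, and Uqcrh of complex III 0.67. That the nuclear subunits were higher was known from these data when the lists were chosen.

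The mitochondrial and the nuclear mRNAs of the same complexes were set against each other within each mouse. The counts of the 13 mitochondrial mRNAs over the summed counts of the 77 nuclear subunits were 2.90, 3.56, 3.63 and 3.28 in WT22 to WT25. They were 3.07, 2.13, 3.30 and 2.32 in KO26 to KO29. KO27 and KO29 lay below all WT mice and KO26 and KO28 within their range, and the mean difference was -0.32 on the log2 scale with an SD of 0.15 in WT and 0.31 in MøFoxO1-KO mice. The nuclear sum alone was 13084 to 16595 CPM in WT and 17188 to 20573 in MøFoxO1-KO mice, without overlap after TMM scaling. The TMM factor was 1.05 in WT22, the highest WT mouse, and 0.951 in KO26, the lowest MøFoxO1-KO mouse. Before that scaling KO26 lay below WT22, so the genotypes overlapped and the separation appeared only after scaling. By complex, the sums overlapped for complex II (775 to 1316 CPM in WT, 944 to 1115 in MøFoxO1-KO mice). They also overlapped for complex IV (2597 to 3502 in WT, 3484 to 4585 in MøFoxO1-KO mice).

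**Figure D5:**
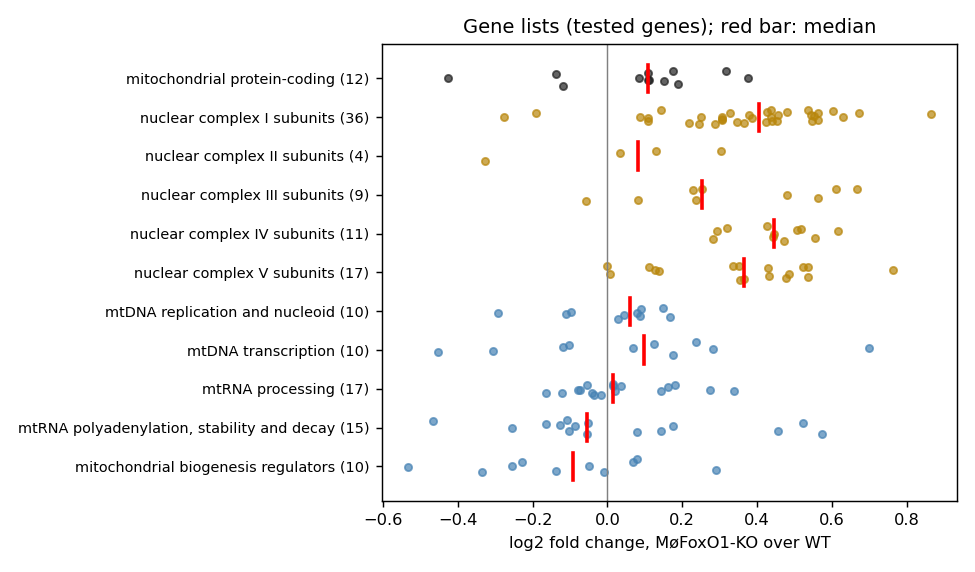
Log2 fold change of MøFoxO1-KO over WT mice for each tested gene (points) of the mitochondrial mRNAs, the nuclear subunits by complex and the nuclear genes that maintain, express or regulate mitochondrial DNA, with the number of genes in brackets and the median as a red bar. Medians are 0.11 for the mitochondrial mRNAs and 0.41, 0.08, 0.25, 0.45 and 0.37 for the nuclear subunits of complexes I to V. Points are spread vertically at random for legibility.

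Of 52 nuclear genes that copy, transcribe, process or stabilize mitochondrial DNA and RNA, 28 were higher and 24 lower, and the median log2 fold change was 0.02. None reached an adjusted P under 0.05 by edgeR, DESeq2 or limma-voom. At an unadjusted P under 0.05 by edgeR 4 were higher and 1 lower, against a background of 8.65% and 8.06%. Tfam, which packages mitochondrial DNA and starts its transcription, had 774 ± 38.1 normalized counts in WT and 790 ± 63.6 in MøFoxO1-KO mice (SD, n = 4 each) and a log2 fold change of 0.03. Polrmt, the mitochondrial RNA polymerase, had a log2 fold change of -0.12 and Mterf3, a repressor of that transcription, one of 0.28 (adjusted P = 0.259, edgeR with Benjamini-Hochberg adjustment). Mterf3 was 1 of 2 genes of the 52 with every MøFoxO1-KO mouse above every WT mouse, against a background of 5.00% of all genes tested.

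Among the 15 genes of polyadenylation, stability and decay of mitochondrial RNA, 6 were higher and 9 lower. Lrpprc, which binds and stabilizes the mRNAs, had a log2 fold change of 0.08, and its partner Slirp one of 0.46 (adjusted P = 0.257, edgeR with Benjamini-Hochberg adjustment). Slc25a33, a pyrimidine nucleotide carrier, and Fastkd5, which takes part in processing precursors that lack tRNA borders, had log2 fold changes of 0.57 and 0.52. Pnpt1, a polynucleotide phosphorylase that degrades mitochondrial RNA, was the 1 gene of this list lower at an unadjusted P under 0.05, with a log2 fold change of -0.46 (adjusted P = 0.294, edgeR with Benjamini-Hochberg adjustment). Of 10 regulators of mitochondrial biogenesis 3 were higher and 7 lower. Ppargc1a, the coactivator that drives it, had 140 ± 31.5 normalized counts in WT and 96.5 ± 15.8 in MøFoxO1-KO mice (SD, n = 4 each), a log2 fold change of -0.53 (adjusted P = 0.243, edgeR with Benjamini-Hochberg adjustment) that did not pass the threshold.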

How the data were processed

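Poly(A)-selected liver RNA was sequenced from 4 WT and 4 MøFoxO1-KO mice, each library being a separate mouse. The deposited values are raw counts of reads per gene in 1 table, made by the authors with STAR and featureCounts on mm10 per the submitters' processing notes. Versions, strand setting and the treatment of multiply mapped reads are not given in the sources used here. The Length column, in bases, was deposited with the counts and served for levels per kilobase.

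Genes were tested with edgeR 4.0.16 in R 4.3.3 (TMM factors, filterByExpr with a minimum count of 10, glmQLFit and glmQLFTest), with Benjamini-Hochberg adjustment over 13278 genes, and the calling thresholds were an adjusted P of 0.05 and an absolute log2 fold change of 1.5. Normalized counts are counts divided by the TMM-scaled library size and multiplied by the mean library size before that scaling. Symbols, coordinates and sequences came from GENCODE M21 (46005 of 46517 identifiers matched). Near-identical pseudogenes were sought with blastn 2.17.0 between transcripts, at 99% identity over at least 100 bases. DESeq2 1.42.0, limma 3.58.1 (voom), other scalings and filters, and the omission of each mouse were alternatives. The test scripts were tested on simulated data.

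The members and lists were chosen with earlier results of these data known. Named were all mRNAs and rRNAs, the tested and most abundant tRNAs, the 3 pseudogenes with the highest counts, Foxo1, and up to 3 genes of each nuclear list by P beside Tfam, Polrmt and Lrpprc. Pnpt1, Gm10222, Gm28437, Gm28438 and Gm13340, the untested tRNAs and the nuclear-retained RNAs were named after their values were seen. Intervals rest on 4 mice per group, and total counts of 15253218 to 18025481 set the counting error of low genes.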

Additional observations from a re-analysis of the deposited data

Results flagged for a closer look

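In 72 groups of 4 mice examined, 6 single mice stood apart from the other 3 of their group by more than the 95% critical value of Dixon's test, and chance flags about 1 in 20 such groups. In the MøFoxO1-KO group KO27 stood low for mt-Nd4l, with 19.1 normalized counts against 60.3 in the nearest mouse, for mt-Th, with 8.34 against 22.96, and for mt-Ts2, with 7.15 against 31.6. In the WT group mt-Tl1 stood high in WT24, with 70.9 normalized counts against 42.1, and mt-Tn in WT22, with 147 against 69.1. The log2 ratio of tRNA to mRNA counts in KO28 was the lowest of the MøFoxO1-KO group, at -8.42 against -8.19 in the nearest mouse of that group, and lay within the WT range of -8.80 to -8.42.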

How the results depend on the processing

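None of the 28 tested mitochondrial genes crossed an adjusted P of 0.05 in any of the settings tried. Over 218 values of the 28 tested genes under other tools, scalings and filters, 217 kept their direction and the lowest adjusted P was 0.0984 (mt-Rnr1, DESeq2). The exception was mt-Tl2, at -0.30 with limma-voom. With 1 mouse left out, 201 of 224 values kept their direction and 23 turned, with a lowest adjusted P of 0.184 by edgeR with Benjamini-Hochberg adjustment. The log2 fold change then ranged from -0.0464 to 0.20 for mt-Atp6, -0.051 to 0.20 for mt-Tc, -0.31 to 0.0333 for mt-Co1, -0.0622 to 0.23 for mt-Nd3, -0.30 to 0.0553 for mt-Nd6, -0.28 to 0.35 for mt-Tg, -0.54 to 0.40 for mt-Tl2, -0.37 to 0.27 for mt-Tn, -0.29 to 0.21 for mt-Ts2, -0.78 to 0.0203 for mt-Tw and -0.0909 to 0.20 for mt-Ty. mt-Nd6 against the other 12 mRNAs gave -0.16 where mt-Nd6 against mt-Nd5 gave 0.29.

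Mitochondrial genes at an unadjusted P under 0.05 numbered 2, but 4 with DESeq2 or with no filter, 1 with the robust option of glmQLFit, and 0 to 4 with 1 mouse left out (0 without WT22, WT23 or WT24, 1 without KO29 and 4 without WT25). Of all genes, 25 were called, against 144 with DESeq2, 13 with limma-voom and 120 with no filter, and 3 (without WT25) to 82 (without KO28) with 1 mouse left out. By adjusted P alone 39 passed, against 586, 24 and 205, and 3 to 129 with the same mice left out. Of the 77 nuclear subunits, 0 passed by adjusted P with edgeR and 20 with DESeq2. The median of the genes of mitochondrial DNA transcription was 0.10, and 0.0461 to 0.20 (without WT23) with 1 mouse left out. The causes were not tested. No paired analysis was possible because the 2 groups share no replicate number. Low counts limit the tRNAs, mt-Atp8 and the 5 mRNAs matched by chromosome 1 nearly throughout. For these 5 mRNAs the counts also depend on how shared reads were treated, which is not given in the sources used here.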
